A study of Mus musculus with 16 samples.

Results

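The genes encoding enzymes of glutathione and thioredoxin chemistry and of superoxide removal were followed in inguinal white fat, which lies under the skin of the groin, of male mice aged 6 to 7 months. Members were chosen by symbol. They are the genes named Gsta, Gstk, Gstm, Gsto, Gstp, Gstt or Gstz with a number (cytosolic, mitochondrial and peroxisomal glutathione transferases), Mgst, Gpx, Prdx, Txn with a number, Txnrd, Sod1 to Sod3, Gclc, Gclm and Srxn1, and pseudogene symbols were left out. This gave 44 of the 55487 genes counted, and 43 of them were among the 16549 genes with enough counts to be tested. The 44 comprise 19 glutathione transferases, 3 microsomal glutathione transferases, 7 peroxiredoxins and sulfiredoxin, 5 glutathione peroxidases, 5 thioredoxins and their reductases, 3 superoxide dismutases and 2 subunits of glutathione synthesis. The groups were mice lacking Kmo in the whole body on a high-fat diet (KO HFD), wild-type littermates on the high-fat diet (WT HFD), Kmo knockouts on chow (KO chow) and wild-type littermates on chow (WT chow), with 4 animals and 1 poly-A RNA library each in every group. Kmo encodes kynurenine 3-monooxygenase, which hydroxylates kynurenine, a product of tryptophan breakdown. The composition of the high-fat diet and its length are not given in the sources used here. The design asks what the diet does to these genes in each genotype, what the loss of Kmo does on each diet, and whether the effect of the diet differs between genotypes.

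Superoxide dismutases turn superoxide into hydrogen peroxide, and glutathione peroxidases and peroxiredoxins then reduce hydrogen peroxide and lipid peroxides. Glutathione is made from glutamate, cysteine and glycine, with glutamate-cysteine ligase as the rate-limiting step. It drives glutathione peroxidases such as Gpx1 and Gpx4, and thioredoxin and its NADPH-dependent reductases drive most peroxiredoxins. Glutathione transferases join glutathione to lipid aldehydes and foreign compounds or use it in other reactions. In adipose tissue these enzymes meet the peroxides and aldehydes that arise from stored and burnt fatty acids. Many of the genes are textbook targets of NRF2, a transcription factor that binds the antioxidant response element.

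The core of that element, written TGACNNNGC, was looked for on both strands in the 250 bases before the transcription starts that RefSeq gives on GRCm38.p6, the build of the deposited counts. A window was at hand for 39 of the 44 members (Gclc, Gsta4, Gstt2, Prdx6 and Sod3 had no entry). The letters occurred in 8 of these 39 members (20.5%) and in 11.5% of the 27025 genes with a window. By window they occurred in 8 of 53 for the members, against 10.2% of all 32851. The 8 matches are shown because NRF2 binds elements with this core, with the matching letters in capitals and 10 bases on each side, read along the gene's strand:
Gclm: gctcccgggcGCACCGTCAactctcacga
Gsta3: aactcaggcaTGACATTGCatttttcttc
Gstm5: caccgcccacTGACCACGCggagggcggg
Gstm7: tctgaagaccTGACAAAGCgaagccaatc
Mgst1: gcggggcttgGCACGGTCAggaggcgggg
Prdx1: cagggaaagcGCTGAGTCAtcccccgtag
Sod1: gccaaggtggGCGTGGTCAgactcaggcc
Txnrd1: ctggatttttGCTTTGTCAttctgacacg
In order these lie at chr3:122245413-122245441, chr1:21240454-21240482, chr3:107895802-107895830, chr3:107931725-107931753 (minus strand), chr6:138140461-138140489, chr4:116685456-116685484, chr16:90220696-90220724 and chr10:82859104-82859132, all but Gstm7 on the plus strand. In Gsta3, Gstm5 and Gstm7 the core reads along the gene, and in the other 5 on the opposite strand. A match of letters is a description of the window and not a measured binding site. In Gstm7, Mgst1 and Txnrd1 the match precedes a later RefSeq start and lies inside the gene as bounded in the count table. Of the members with a window that changed with the diet over both genotypes (below), 2 of 14 held the core (Gstm5 and Sod1), against 6 of 24 tested members that did not pass the threshold.

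Library totals ran from 13824404 to 16909361 counted read pairs, and the 44 members took 0.655% to 0.679% of the counts in KO HFD, 0.631% to 0.778% in WT HFD, 0.624% to 0.732% in KO chow and 0.593% to 0.702% in WT chow. Kmo itself averaged 0.0992 ± 0.0337 CPM (counts of a gene scaled to a fixed library total with trimmed-mean factors; SD, n = 4) in KO HFD and 6.66 ± 4.87 CPM in WT HFD, and 0.259 ± 0.191 CPM in KO chow against 10.99 ± 7.27 CPM in WT chow, so that it was low in both knockout groups. Adipocyte markers marked every library, with a summed level of 26290 to 33680 CPM in KO HFD, 26300 to 32530 CPM in WT HFD, 19370 to 27650 CPM in KO chow and 16760 to 25230 CPM in WT chow. Of these 8 markers 2 (Lep and Cidec) rose over both genotypes and 1 (Pparg) fell, and the others did not pass. Within WT and within KO, Lep and Cidec alone passed. Markers of other cell types were read beside these. The 6 thermogenic markers summed to 59.5 to 86.4 CPM in KO HFD and 48.1 to 107 CPM in WT HFD, against 199.7 to 756 CPM in KO chow and 194.5 to 674 CPM in WT chow, and 5 of the 6 fell over both genotypes. Within WT and within KO 4 of the 6 fell (Ucp1, Cidea, Cox7a1 and Cox8b), and the summed ranges did not overlap between the diets. The 10 macrophage markers summed to 773 to 1009 CPM in KO HFD and 675 to 1345 CPM in WT HFD, against 429 to 1134 CPM in KO chow and 549.5 to 1414 CPM in WT chow (3 of 10 rose over both genotypes and none passed within WT or KO). The 8 progenitor and fibroblast markers summed to 5023 to 6744 CPM in KO HFD and 3945 to 7959 CPM in WT HFD, against 2436 to 5259 CPM in KO chow and 2635 to 6316 CPM in WT chow (2 of 8, Col1a1 and Col3a1, rose over both genotypes and none passed within WT or KO). The ranges of both lists overlapped between the diets. The part of these markers in the results on the diet was not tested, and in bulk tissue fewer cells of a type and less RNA per cell cannot be told apart. Lymphoid markers ran from 4.66 to 681 CPM over the libraries and stood high in 1 library of KO HFD, 1 of WT HFD, 2 of KO chow and 2 of WT chow, and no lymphoid, muscle or erythrocyte marker passed the threshold in any comparison.

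Per length of transcript, Gpx4, the peroxidase that reduces phospholipid hydroperoxides inside membranes, was the highest, at 414 ± 108 RPKM (the same scale per kilobase of exon; mean and SD over 16 libraries), followed by Mgst1, a membrane-bound transferase with peroxidase activity, at 287 ± 50.1 RPKM, and Gpx1, the main cytosolic glutathione peroxidase, at 263 ± 38.1 RPKM. Next came Gstz1, the maleylacetoacetate isomerase of tyrosine breakdown, at 158 ± 26.6 RPKM, Sod3, the extracellular dismutase, at 153 ± 61.1 RPKM, Gpx3, the secreted plasma peroxidase, at 149.7 ± 71.3 RPKM, and Prdx5 at 145 ± 37.1 RPKM. The glutamate-cysteine ligase subunits Gclc and Gclm stood low, at 9.47 ± 1.33 and 7.39 ± 0.940 RPKM. At the bottom were Gstp3, Gstm6, Gstp2 and Gsto2, at 1.72, 1.43, 1.15 and 1.07 RPKM, and Gstt4, at 0.0745 RPKM, which was too low to test. Neighbours in this order had overlapping library ranges in all but 2 places, between Gpx1 and Gstz1 and between Gclm and Gstm7, so most ranks are not separated by more than the spread of the libraries. The spread within groups was on a par with that of other genes: the SD of log2 CPM had a median of 0.249 over the 43 members and 0.290 over all genes tested, with the lowest member Gsto1 (0.117) and the highest Gstp3 (1.55) and, among well-expressed members, Gpx3 (0.688). Mgst1, the highest of the microsomal transferases, held 506, 592, 590.1 and 617 CPM in KO HFD and 605, 460.3, 510.4 and 777 CPM in WT HFD. On chow Mgst1 held 536, 789, 505 and 534 CPM in KO and 692, 533, 548 and 445 CPM in WT, and the groups overlapped. Gstz1, the highest of the other transferases, held 704, 862, 968 and 1018 CPM in KO HFD and 824, 786, 773 and 995 CPM in WT HFD. On chow Gstz1 held 681, 814, 619 and 830.2 CPM in KO and 864, 689, 896 and 529 CPM in WT, and again the groups overlapped.

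**Figure D1:**
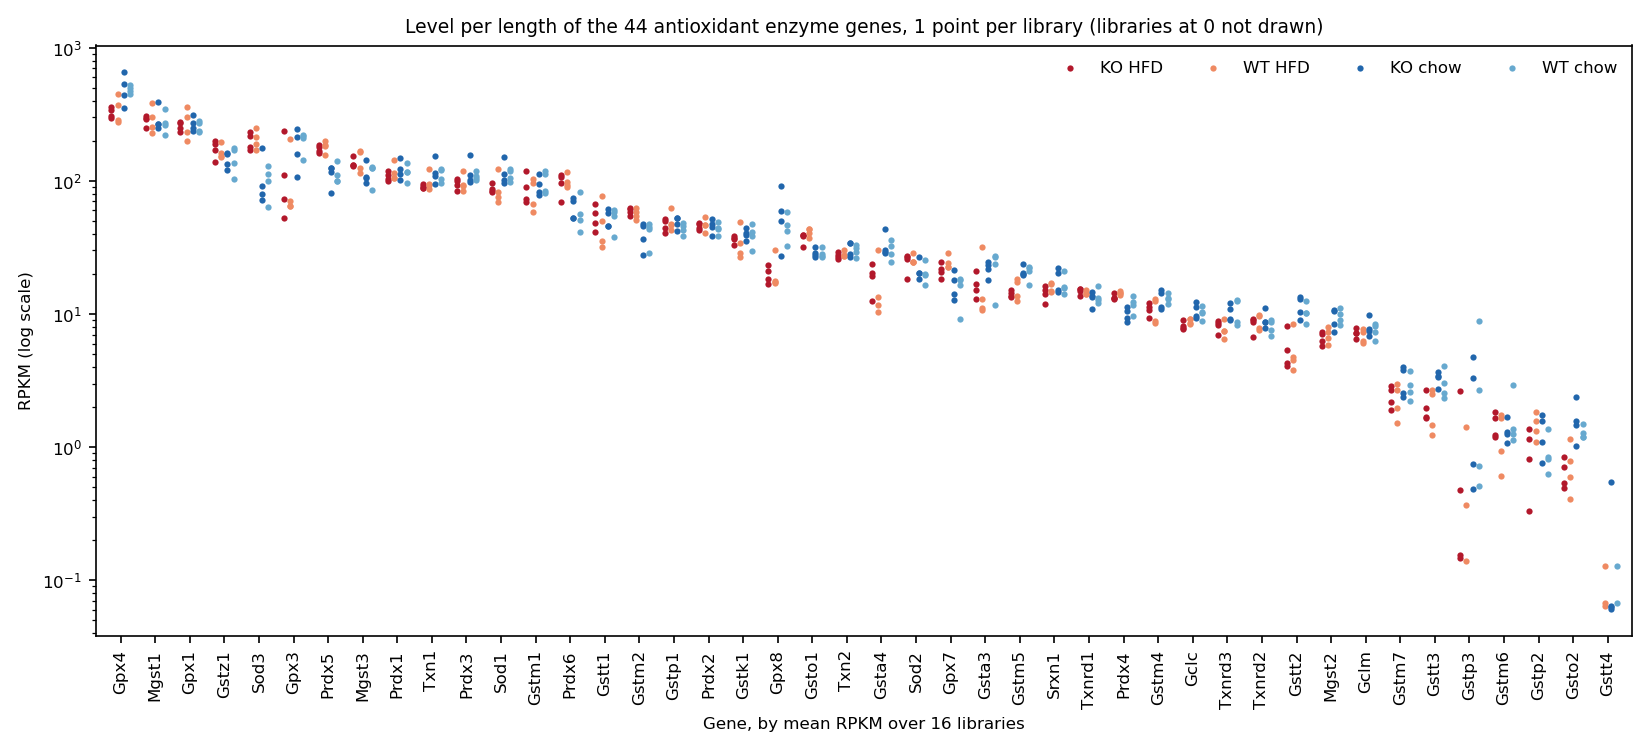
Level per length (RPKM, log axis) of the 44 members in each of 16 libraries, 1 point per library, ordered by the mean over all libraries and coloured by group; libraries at 0 are not drawn. Gpx4 leads at a mean of 414 RPKM and Gstt4 closes the order at 0.0745 RPKM, and most HFD points stand above the chow points for Sod3, Prdx5 and Prdx6 and below them for Gpx8.

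Over both genotypes together, the high-fat diet changed 19 of the 43 tested members (edgeR quasi-likelihood test, adjusted p under 0.05 over all 16549 genes), a share of 44.2%, where 33.1% of all genes tested passed. Of the members 7 rose (16.3%, all genes 17.1%) and 12 fell (27.9%, all genes 16%). The median log2 fold change over the 43 members was -0.14, against -0.04 over all genes. At an unadjusted p under 0.05 there were 25 (58.1%, all genes 44%). Those that rose were Sod3, Prdx4, Prdx5, Prdx6, Gpx7, Gsto1 and Gstm2. Those that fell were Sod1, Gclc, Gpx4, Gpx8, Txn1, Txnrd3, Gsta4, Gstm5, Gsto2, Gstt2, Gstt3 and Mgst2. For 4 members (9.30%, all genes 6.85%) the 8 HFD libraries and the 8 chow libraries did not overlap at all, namely Gsto1, Gstm2 and Prdx5 above and Gstt2 below. The families split: 3 of 7 peroxiredoxins and sulfiredoxin rose and none fell, 2 of 5 thioredoxins and reductases fell and none rose, and glutathione peroxidases, dismutases and transferases had members on both sides. Leaving out any 1 library left between 17 and 24 members past the threshold, and 17 of the 19 kept their call each time. The exceptions were Sod1 and Txn1, whose values are given below. Among the 12 libraries merged over sequencing lanes 20 members passed, and among the 10 libraries with low lymphoid markers 15 passed. For these smaller sets the share of all genes past the threshold is not given, so members are not compared with other genes there.

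Within WT the diet changed 8 members (18.6%, all genes 11.8%), of which 5 rose (11.6%, all genes 6.90%) and 3 fell (6.98%, all genes 4.92%). Within KO it changed 12 members (27.9%, all genes 12.5%), of which 5 rose (11.6%, all genes 7.28%) and 7 fell (16.3%, all genes 5.23%). In both genotypes 6 members were called, each in the same direction, with 2 called in WT alone, 6 in KO alone and 5 only when both were joined. Groups did not overlap for 12 members in WT (27.9%, all genes 17.4%) and for 13 in KO (30.2%, all genes 18.6%). At an unadjusted p under 0.05, 18 members stood in WT (41.9%, all genes 29.4%) and 19 in KO (44.2%, all genes 29.9%). The sign of the fold change was shared by 35 of the 43 members. The medians over the members were -0.14 in WT and -0.16 in KO, against -0.03 and -0.04 over all genes. The counts of members called change with single libraries left out, and the shares of all genes in those fits are not given here. In WT, taking out HFD replicate 3 or chow replicate 1 left 2 members. Taking out HFD replicate 2 or chow replicate 4 left 3, HFD replicate 1 left 5, and HFD replicate 4 left 13. In KO, taking out HFD replicate 2 left 2 members, HFD replicate 3 or chow replicate 2 left 3, chow replicate 3 left 4 and HFD replicate 4 left 6. With only the 12 libraries merged over lanes, 1 member (Gsta4) passed in WT and none of the 8. Gsto1 and Prdx5 in WT, and Gpx8 and Prdx5 in KO, were the members that kept their call whichever library was left out.

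**Figure D2:**
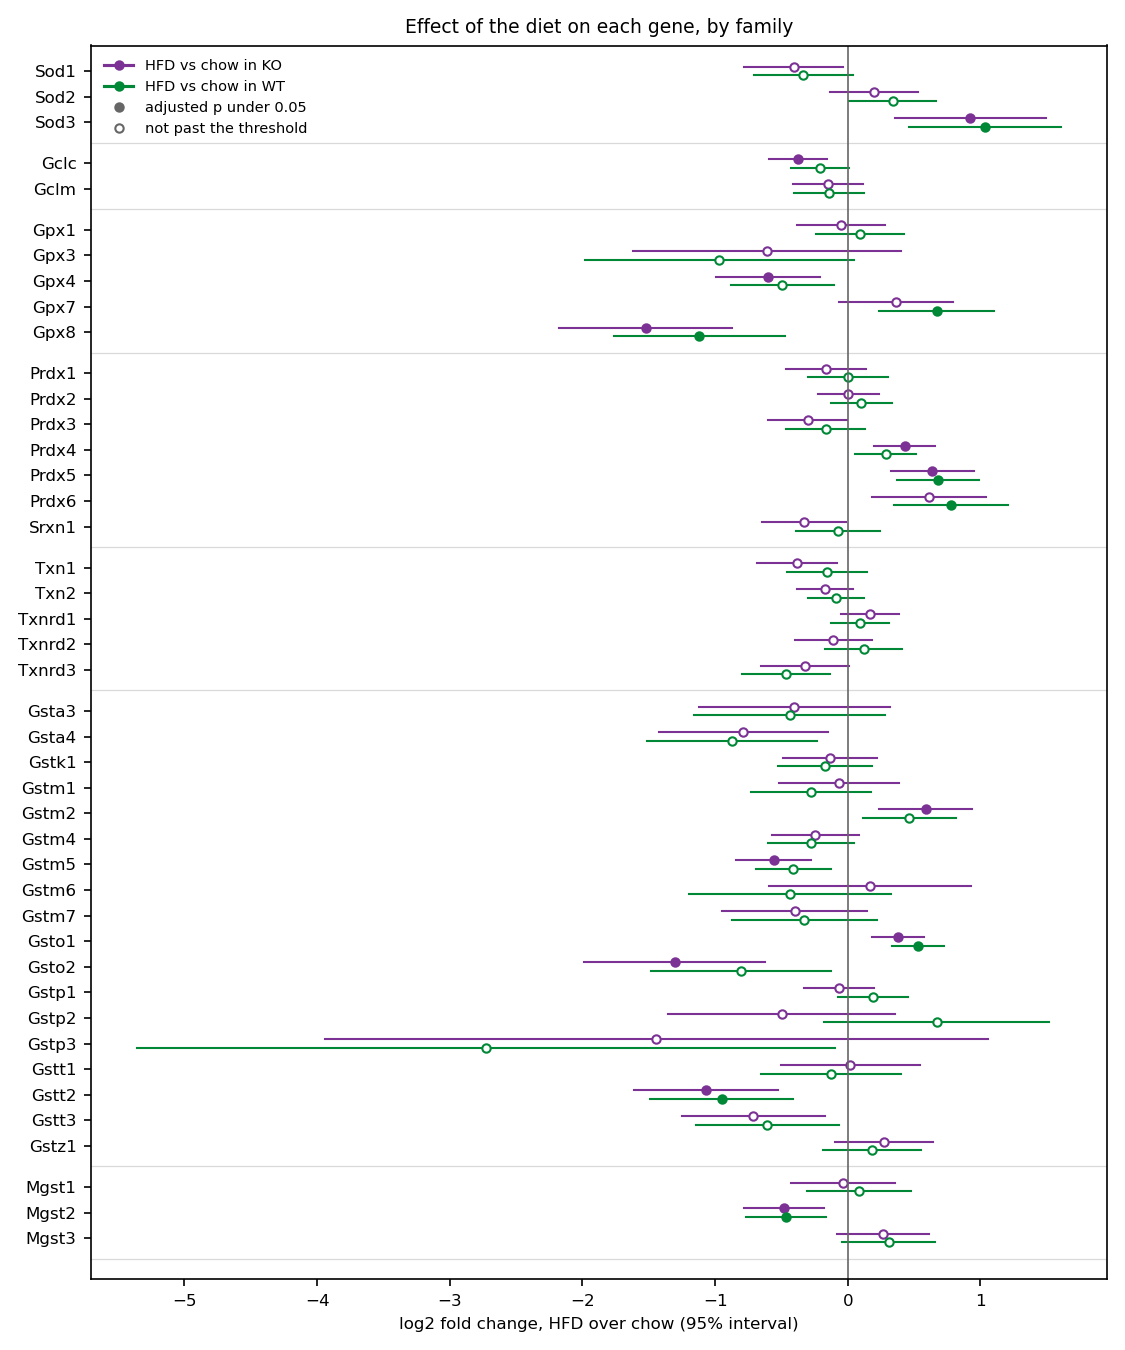
Log2 fold change of HFD over chow with its 95% interval for the 43 tested members, by family from the superoxide dismutases at the top to the microsomal transferases at the bottom, in KO (purple, upper) and in WT (green, lower); filled points passed an adjusted p of 0.05. Most intervals of a gene overlap between genotypes, with Sod3, Prdx5 and Gsto1 filled to the right of 0 in both and Gpx8, Gstt2 and Mgst2 filled to the left in both.

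Sod3, which clears superoxide outside cells, rose the most of the members called. It held 634, 817, 863 and 669 CPM in KO HFD and 937, 804, 708 and 641 CPM in WT HFD. On chow Sod3 held 341, 296, 270.2 and 665 CPM in KO and 369.8, 420.5, 482 and 236 CPM in WT. All HFD libraries stood above the chow libraries but for KO chow replicate 4, which lay within the HFD range. The log2 fold change was 0.98 ± 0.19 over both genotypes (adjusted p = 0.00159, edgeR), 1.03 ± 0.27 in WT (adjusted p = 0.0243) and 0.92 ± 0.27 in KO (adjusted p = 0.0361). Sod1, the copper- and zinc-dependent dismutase of the cytosol, went the other way. Its levels were 342, 332, 325 and 385 CPM in KO HFD and 328, 277, 303 and 491 CPM in WT HFD. On chow Sod1 held 445, 605, 404 and 384 CPM in KO and 475, 414, 486 and 388 CPM in WT. WT HFD replicate 4 lay above every WT chow library and the other 7 HFD libraries ran from 277 to 385 CPM. Sod1 fell by 0.37 ± 0.12 (log2, SE) over both genotypes (adjusted p = 0.0326), and its adjusted p was between 0.0551 and 0.0702 when 1 of KO HFD replicates 2 or 3, WT HFD replicates 1 to 3, KO chow replicate 2 or WT chow replicates 1 or 3 was left out. Sod2, the manganese-dependent dismutase of mitochondria, had a log2 fold change of 0.27 ± 0.11 and did not pass (adjusted p = 0.0732), with means of 245 ± 42.2 and 257 ± 19.9 CPM in KO HFD and WT HFD, and 214 ± 36.4 and 203 ± 36.9 CPM in KO chow and WT chow. It passed without KO HFD replicate 1, KO chow replicate 2 or WT chow replicate 3 (adjusted p of 0.0209, 0.0280 and 0.0261).

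**Figure D3:**
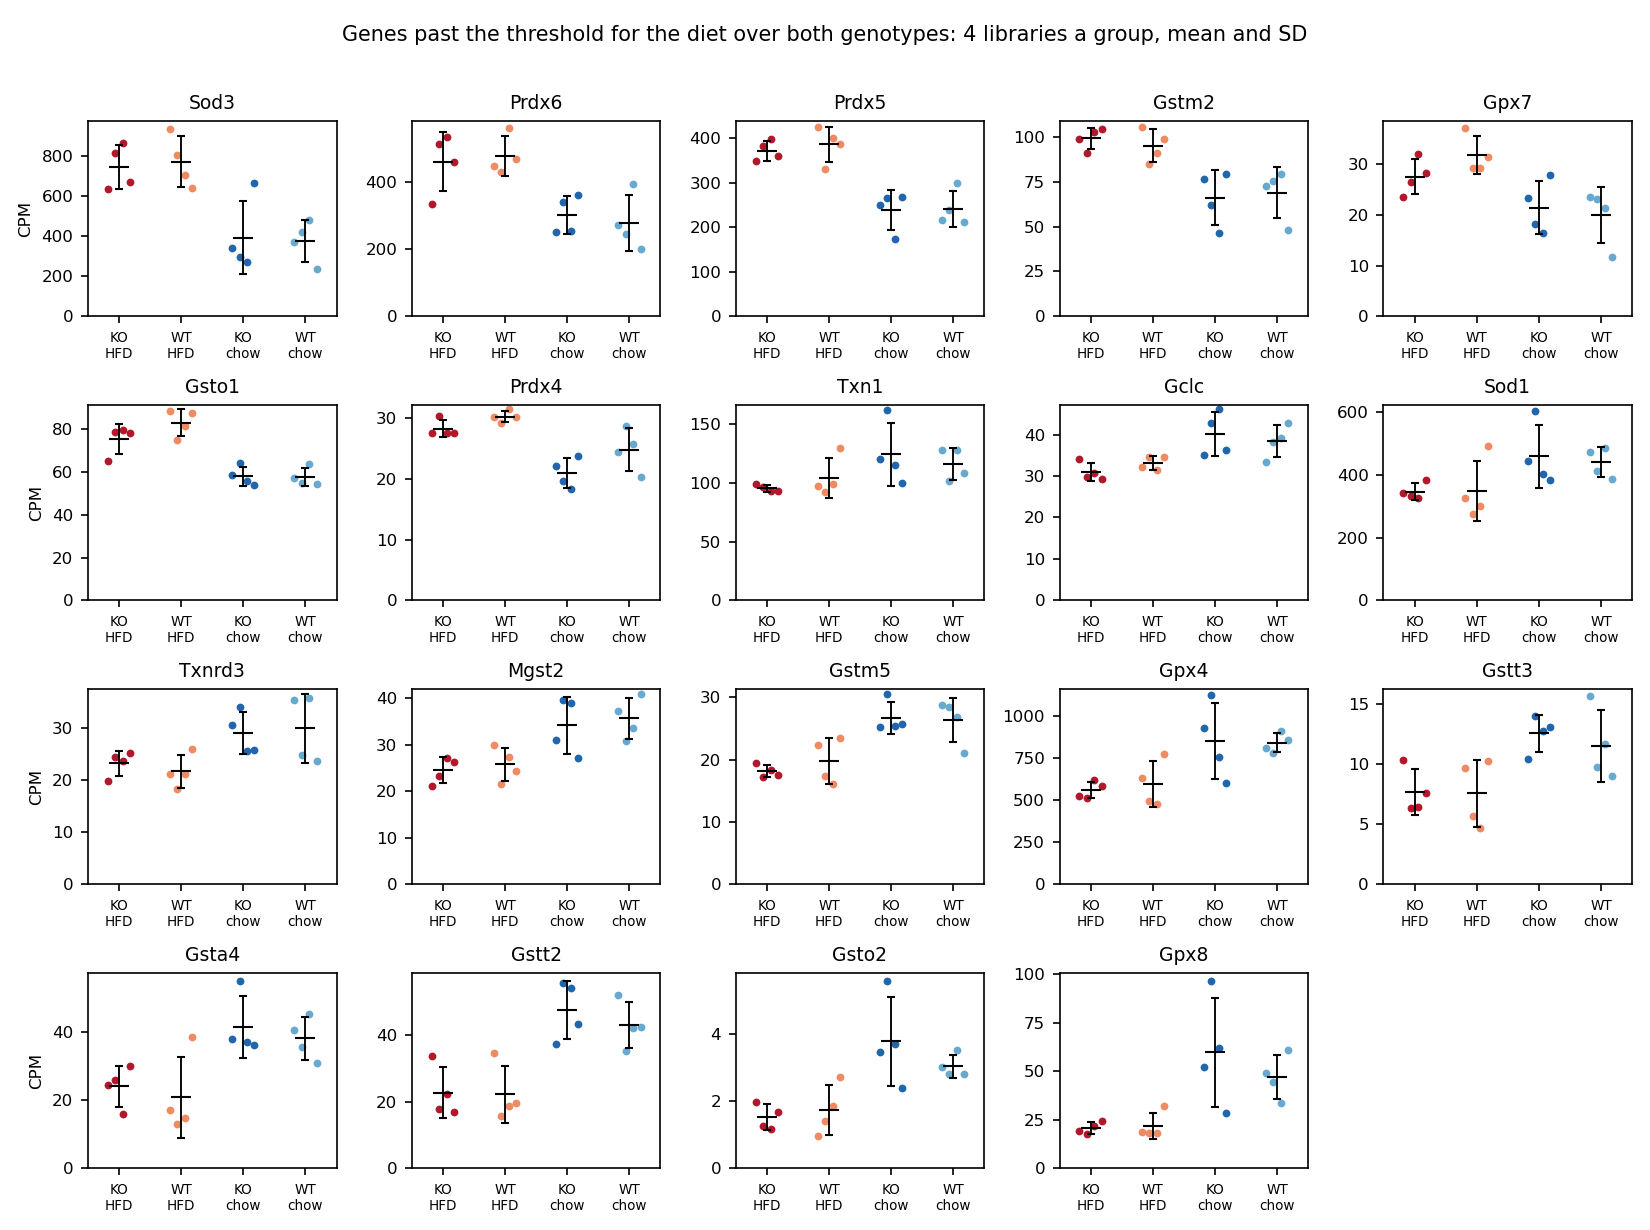
CPM of the 19 members that changed with the diet over both genotypes, 1 panel each, from the largest increase (Sod3) to the largest decrease (Gpx8), with 4 libraries a group as points and the group mean and SD as bars; axes start at 0. Gsto1, Gstm2, Prdx5 and Gstt2 are the panels in which no HFD library reaches into the chow range.

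Gpx8, a member of the glutathione peroxidase family found in the endoplasmic reticulum, had the largest decrease among the members called. The libraries held 19.2, 17.8, 21.9 and 24.3 CPM in KO HFD and 18.7, 18.1, 18.2 and 31.9 CPM in WT HFD. On chow Gpx8 held 52.1, 96.3, 62.01 and 28.6 CPM in KO and 49.2, 44.3, 33.8 and 61.2 CPM in WT. Within each genotype every HFD library was below every chow library, and across genotypes WT HFD replicate 4 alone reached above the lowest chow library, KO chow replicate 4. Log2 fold changes were -1.32 ± 0.21 over both genotypes (adjusted p = 0.000586), -1.12 ± 0.30 in WT (adjusted p = 0.0294) and -1.52 ± 0.30 in KO (adjusted p = 0.00896). Gpx7, its close relative in the same compartment, rose instead, by 0.52 ± 0.14 over both genotypes (adjusted p = 0.0132) and by 0.67 ± 0.20 in WT (adjusted p = 0.0446). Its libraries held 23.6, 26.5, 31.9 and 28.2 CPM in KO HFD and 37.2, 29.2, 29.3 and 31.4 CPM in WT HFD. On chow Gpx7 held 23.4, 18.1, 16.4 and 27.8 CPM in KO and 23.6, 23.2, 21.3 and 11.7 CPM in WT. The WT groups were apart and the KO groups overlapped, with a value in KO of 0.36 ± 0.20 (adjusted p = 0.246). Because Gpx8 carries the largest decrease, the 250 bases before its start (chr13:113046389-113046638, minus strand, GRCm38.p6) are shown, in which neither the GC box GGGCGG nor CCAAT occurs on either strand and 44.8% of the bases are G or C:
Gpx8: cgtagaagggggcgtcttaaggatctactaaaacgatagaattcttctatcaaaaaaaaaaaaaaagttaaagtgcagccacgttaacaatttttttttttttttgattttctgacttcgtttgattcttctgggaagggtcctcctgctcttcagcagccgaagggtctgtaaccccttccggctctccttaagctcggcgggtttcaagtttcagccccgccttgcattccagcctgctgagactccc
Of all genes with a window, tested here or not, 35.4% hold a GC box and 37.5% a CCAAT box, against 26 of 39 members (66.7%) and 20 of 39 members (51.3%). By window each box occurred in 30 of 53 for the members, against 32.7% (GC box) and 33.8% (CCAAT) of all 32851.

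Gpx4 counts were 525, 515, 619 and 587 CPM in KO HFD and 636, 498, 479 and 778 CPM in WT HFD. On chow Gpx4 held 927, 1127, 757 and 604 CPM in KO and 814, 779.9, 910.2 and 861 CPM in WT. The WT groups were apart by a small gap, with WT HFD replicate 4 just under the lowest WT chow library, and in KO the HFD libraries overlapped with KO chow replicate 4. The log2 fold change was -0.55 ± 0.13 over both genotypes (adjusted p = 0.00526), -0.60 ± 0.18 in KO (adjusted p = 0.0436) and -0.49 ± 0.18 in WT, which did not pass (adjusted p = 0.0886). Among the 10 libraries with low lymphoid markers the value over both genotypes missed the threshold, at an adjusted p of 0.0597. A processed copy, Gpx4-ps2, near-identical to Gpx4, held 40.6 ± 2.77 CPM in KO HFD, 45.9 ± 15.96 CPM in WT HFD, 77.8 ± 37.9 CPM in KO chow and 65.04 ± 14.2 CPM in WT chow, and how reads were split between the copies cannot be told from the counts. Gpx3 spread the widest of the well-expressed members. It held 431, 133, 95.98 and 202 CPM in KO HFD and 117, 129, 117 and 371 CPM in WT HFD. On chow Gpx3 held 446, 384, 288 and 194 CPM in KO and 380.0, 400.3, 392 and 262 CPM in WT. KO HFD replicate 1 and WT HFD replicate 4 stood well inside the chow range, KO HFD replicate 4 stood just above KO chow replicate 4, and the other 5 HFD libraries were below every chow library. Its log2 fold change of -0.79 ± 0.33 did not pass (adjusted p = 0.0846), and it passed once KO HFD replicate 1 (-1.08, adjusted p = 0.0131) or WT HFD replicate 4 (-1.09, adjusted p = 0.0126) was left out. Gpx1 averaged 371 ± 28.3 CPM in KO HFD and 394 ± 101.5 CPM in WT HFD, against 384 ± 47.4 CPM in KO chow and 369 ± 34.3 CPM in WT chow, with a log2 difference of 0.02 ± 0.11 (95% interval -0.21 to 0.26) whose sign turns under upper-quartile scaling.

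Among the peroxiredoxins, Prdx5, which is found in mitochondria, peroxisomes and the cytosol, separated the diets fully. Libraries held 348, 383, 398 and 359 CPM in KO HFD and 424, 332, 400.0 and 388 CPM in WT HFD. On chow Prdx5 held 250.4, 267, 172 and 268 CPM in KO and 215, 238, 299 and 212 CPM in WT. No HFD library was below 332 CPM and no chow library above 299 CPM. The log2 fold change was 0.66 ± 0.10 over both genotypes (adjusted p = 0.000418), 0.68 ± 0.15 in WT (adjusted p = 0.0108) and 0.64 ± 0.15 in KO (adjusted p = 0.0138). Without strand its counts could include reads of Trmt112, whose exons share 19.1% of its exon length and which averaged 21.7 CPM. The 250 bases before its start (chr19:6910107-6910356, minus strand) are given as the counterpart of the Gpx8 window among the increases, with 61.2% G or C and 1 GC box, in capitals:
Prdx5: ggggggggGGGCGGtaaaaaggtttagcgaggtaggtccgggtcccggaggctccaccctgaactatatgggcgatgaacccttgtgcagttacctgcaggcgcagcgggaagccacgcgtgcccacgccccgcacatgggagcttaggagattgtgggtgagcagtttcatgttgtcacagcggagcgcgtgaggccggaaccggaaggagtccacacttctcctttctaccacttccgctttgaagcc
Prdx6, which uses glutathione and also acts as a phospholipase, held 335, 512, 531 and 459.7 CPM in KO HFD and 445, 430.0, 561 and 468 CPM in WT HFD. On chow Prdx6 held 251, 341, 253 and 359 CPM in KO and 270.4, 245, 393 and 199 CPM in WT. The WT groups were apart, and in KO the first HFD library lay within the chow range. It rose by 0.70 ± 0.14 over both genotypes (adjusted p = 0.00221) and by 0.78 ± 0.20 in WT (adjusted p = 0.0238), with 0.61 ± 0.20 in KO (adjusted p = 0.0585). Prdx4, the peroxiredoxin of the endoplasmic reticulum, held 27.5, 30.4, 27.5 and 27.5 CPM in KO HFD and 30.1, 29.2, 31.5 and 30.2 CPM in WT HFD. On chow Prdx4 held 22.1, 19.7, 18.4 and 23.8 CPM in KO and 24.5, 28.7, 25.7 and 20.2 CPM in WT. Both genotypes showed no overlap between diets, by a narrow margin in WT. Its log2 fold change was 0.36 ± 0.08 over both genotypes (adjusted p = 0.00278), 0.43 ± 0.11 in KO (adjusted p = 0.0199) and 0.29 ± 0.11 in WT (adjusted p = 0.0906). The cytosolic Prdx1 and Prdx2 and the mitochondrial Prdx3 did not pass, at -0.08 ± 0.10, 0.05 ± 0.08 and -0.24 ± 0.10 (adjusted p of 0.551, 0.621 and 0.0821), and the sign of Prdx2 turned under upper-quartile scaling. Prdx3 passed without WT HFD replicate 4 (adjusted p = 0.0364) or KO chow replicate 4 (adjusted p = 0.0488). Srxn1, the sulfiredoxin that repairs over-oxidised peroxiredoxins, averaged 40.4 ± 5.22 CPM in KO HFD and 44.6 ± 3.40 CPM in WT HFD, against 50.8 ± 10.2 CPM in KO chow and 47.01 ± 8.29 CPM in WT chow (log2 fold change -0.20 ± 0.11, adjusted p = 0.148).

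Txn1, the cytosolic thioredoxin, held 99.5, 96.4, 93.1 and 93.1 CPM in KO HFD and 97.1, 91.96, 99.2 and 129.7 CPM in WT HFD. On chow Txn1 held 121, 162, 115 and 99.6 CPM in KO and 128, 101.6, 128 and 108 CPM in WT. The KO groups were apart and the WT groups overlapped, with WT HFD replicate 4 above all WT chow libraries. Txn1 fell by 0.27 ± 0.10 over both genotypes at an adjusted p of 0.0496, and the call was lost without any 1 of 13 libraries, all but WT HFD replicate 4, KO chow replicate 4 and WT chow replicate 2, with adjusted p-values of 0.0546 to 0.102. In the 10 libraries with low lymphoid markers the adjusted p-values of Txn1 and of Sod1 were 0.0735 and 0.0712. Txnrd3, a reductase that acts on thioredoxin and glutathione, held 19.8, 24.4, 23.6 and 25.2 CPM in KO HFD and 21.1, 18.3, 21.3 and 26.01 CPM in WT HFD. On chow Txnrd3 held 30.7, 34.1, 25.6 and 25.9 CPM in KO and 35.4, 24.9, 35.9 and 23.6 CPM in WT. It fell by 0.39 ± 0.11 (adjusted p = 0.0137), with no overlap in KO and WT HFD replicate 4 inside the chow range in WT. Txn2, the mitochondrial thioredoxin, and its reductase Txnrd2 had log2 fold changes of -0.13 ± 0.07 and 0.01 ± 0.10 (adjusted p of 0.163 and 0.972, the sign of Txnrd2 turning with the scaling), and cytosolic Txnrd1 0.13 ± 0.07 (adjusted p = 0.18). Txnrd1 passed only without WT chow replicate 3 among the libraries left out (adjusted p = 0.0472).

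Of the glutamate-cysteine ligase subunits, the catalytic Gclc held 34.1, 29.8, 30.6 and 29.2 CPM in KO HFD and 32.2, 34.6, 31.5 and 34.6 CPM in WT HFD. On chow Gclc held 34.97, 42.9, 46.2 and 36.3 CPM in KO and 33.5, 38.3, 39.3 and 42.9 CPM in WT. In KO every HFD library was below every chow library, and in WT the groups overlapped through WT chow replicate 1. Gclc fell by 0.29 ± 0.07 over both genotypes (adjusted p = 0.00703) and by 0.37 ± 0.10 in KO (adjusted p = 0.0296), with -0.21 ± 0.10 in WT (adjusted p = 0.183). The modifier subunit Gclm averaged 45.2 ± 3.29 CPM in KO HFD and 43.1 ± 5.06 CPM in WT HFD, against 50.1 ± 8.03 CPM in KO chow and 47.5 ± 6.11 CPM in WT chow, a log2 difference of -0.14 ± 0.09 with a 95% interval of -0.33 to 0.04 (adjusted p = 0.217).

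The omega-class transferases Gsto1 and Gsto2, which reduce mixed disulfides of glutathione and dehydroascorbate, are neighbours on chromosome 19, with 743 bases between the end of Gsto1 (47854970 to 47864790) and the start of Gsto2 (47865534 to 47886324), and moved in opposite directions. Gsto1 held 65.00, 78.7, 79.7 and 78.1 CPM in KO HFD and 88.5, 74.9, 81.6 and 87.5 CPM in WT HFD. On chow Gsto1 held 58.4, 64.2, 55.8 and 53.8 CPM in KO and 57.3, 54.99, 63.9 and 54.6 CPM in WT. Every HFD library stood above every chow library, the closest being KO HFD replicate 1 and KO chow replicate 2. Gsto1 had the smallest adjusted p of the members (0.000227) for a log2 fold change of 0.45 ± 0.06 over both genotypes, with 0.53 ± 0.09 in WT (adjusted p = 0.00424) and 0.38 ± 0.09 in KO (adjusted p = 0.0175). Gsto2, far less abundant, held 1.98, 1.27, 1.17 and 1.67 CPM in KO HFD and 0.953, 1.40, 1.86 and 2.71 CPM in WT HFD. On chow Gsto2 held 3.46, 5.56, 3.69 and 2.38 CPM in KO and 2.997, 2.79, 3.53 and 2.81 CPM in WT. Within each genotype the diets did not overlap. Its log2 fold change was -1.05 ± 0.23 over both genotypes (adjusted p = 0.00294), -1.31 ± 0.32 in KO (adjusted p = 0.0188) and -0.80 ± 0.32 in WT (adjusted p = 0.107). The 250 bases before the start of each are set side by side because the neighbours part with the diet, Gsto1 from chr19:47854723-47854972 and Gsto2 from chr19:47865295-47865544 (the first of 2 starts), both on the plus strand of GRCm38.p6, with the GC box of Gsto1 and the CCAAT box of Gsto2, read from the opposite strand, in capitals:
Gsto1: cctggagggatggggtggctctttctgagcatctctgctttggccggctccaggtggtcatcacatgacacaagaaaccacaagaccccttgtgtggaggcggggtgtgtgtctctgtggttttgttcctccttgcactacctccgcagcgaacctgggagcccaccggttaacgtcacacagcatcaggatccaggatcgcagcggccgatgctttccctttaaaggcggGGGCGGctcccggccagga
Gsto2: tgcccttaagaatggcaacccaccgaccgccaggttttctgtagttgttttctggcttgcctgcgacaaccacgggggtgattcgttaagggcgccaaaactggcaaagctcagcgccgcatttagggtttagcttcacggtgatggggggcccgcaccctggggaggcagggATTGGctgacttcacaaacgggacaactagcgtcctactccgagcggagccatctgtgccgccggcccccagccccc
The windows hold 60% and 60.8% G or C, and neither holds the antioxidant response core. The window of the other Gsto2 start, not shown, holds a GC box, so a GC box does not set the 2 genes apart.

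Members also parted within the mu-class cluster on chromosome 3, where 6 transferases lie within 149.1 kb. Gstm2 held 98.8, 91.2, 103 and 104 CPM in KO HFD and 106, 84.8, 91.3 and 98.6 CPM in WT HFD. On chow Gstm2 held 76.7, 61.8, 46.3 and 79.4 CPM in KO and 72.9, 75.5, 79.3 and 48.1 CPM in WT. No HFD library reached down to a chow library. It rose by 0.53 ± 0.12 over both genotypes (adjusted p = 0.00362) and by 0.59 ± 0.17 in KO (adjusted p = 0.0325), with 0.46 ± 0.17 in WT (adjusted p = 0.0773). Gstm5, the first of the cluster along the chromosome, held 19.4, 17.2, 18.4 and 17.6 CPM in KO HFD and 22.3, 17.4, 16.03 and 23.4 CPM in WT HFD. On chow Gstm5 held 25.2, 30.5, 25.3 and 25.8 CPM in KO and 28.7, 28.5, 26.9 and 21.1 CPM in WT. The KO groups were apart, and in WT the first and last HFD libraries stood above WT chow replicate 4. Gstm5 fell by 0.48 ± 0.09 over both genotypes (adjusted p = 0.00157) and by 0.56 ± 0.13 in KO (adjusted p = 0.0162), with -0.41 ± 0.13 in WT (adjusted p = 0.0552), and an antisense gene, 4933431E20Rik, overlaps 13.9% of its exon length. Gstm1, the most abundant of the cluster per length, and Gstm4, Gstm6 and Gstm7 did not pass, with log2 fold changes over both genotypes of -0.17 ± 0.15, -0.26 ± 0.11, -0.13 ± 0.25 and -0.36 ± 0.18. Sequences in this cluster and among Gstp1, Gstp2 and Gstp3 are alike, so that reads assigned to one may stem from another.

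Theta- and alpha-class transferases were lower on the high-fat diet where they passed. Gstt2 held 33.6, 17.9, 22.4 and 17.02 CPM in KO HFD and 34.8, 15.7, 18.8 and 19.8 CPM in WT HFD. On chow Gstt2 held 37.3, 55.7, 54.2 and 43.3 CPM in KO and 52.2, 35.2, 42.2 and 42.5 CPM in WT. All 8 HFD libraries lay below all 8 chow libraries, the closest being WT HFD replicate 1 and WT chow replicate 2. The log2 fold change was -1.01 ± 0.18 over both genotypes (adjusted p = 0.000979), -0.95 ± 0.25 in WT (adjusted p = 0.0272) and -1.07 ± 0.25 in KO (adjusted p = 0.0166). Gstt3, in the same cluster of 4 members over 63.3 kb on chromosome 10, held 10.4, 6.34, 6.45 and 7.60 CPM in KO HFD and 9.66, 5.68, 4.72 and 10.3 CPM in WT HFD. On chow Gstt3 held 10.4, 14.04, 12.8 and 13.1 CPM in KO and 15.7, 9.74, 11.7 and 9.06 CPM in WT. It passed over both genotypes, at -0.66 ± 0.18 (adjusted p = 0.0118), with the KO groups just apart and the WT groups overlapping. Gstt1 between them averaged 81.7 ± 16.8 CPM in KO HFD and 74.1 ± 31.7 CPM in WT HFD, against 80.5 ± 12.2 CPM in KO chow and 81.04 ± 15.7 CPM in WT chow (log2 fold change -0.05 ± 0.17, adjusted p = 0.834). Gsta4, which conjugates the lipid peroxidation product hydroxynonenal, held 24.6, 25.9, 15.9 and 30.1 CPM in KO HFD and 17.03, 13.1, 14.8 and 38.5 CPM in WT HFD. On chow Gsta4 held 38.1, 55.1, 37.1 and 36.2 CPM in KO and 40.8, 35.8, 45.5 and 30.9 CPM in WT. WT HFD replicate 4 alone of the HFD libraries stood among the chow libraries. Gsta4 fell by 0.83 ± 0.21 over both genotypes (adjusted p = 0.00874), with -0.87 ± 0.30 in WT (adjusted p = 0.07) and -0.79 ± 0.30 in KO (adjusted p = 0.096), and in WT without replicate 4 of the HFD group the value was -1.35 (adjusted p = 0.00382). In the 10 libraries with low lymphoid markers its adjusted p over both genotypes was 0.0594. Gsta3 averaged 71.7 ± 15.04 CPM in KO HFD and 72.2 ± 43.97 CPM in WT HFD, against 94.9 ± 12.2 CPM in KO chow and 97.7 ± 32.2 CPM in WT chow, and of the libraries left out in turn passed only without WT HFD replicate 4 (-0.42 ± 0.24, adjusted p = 0.187, with all libraries, and -0.68, adjusted p = 0.00801, without it).

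Mgst2, a membrane transferase that can make leukotriene C, held 21.2, 23.3, 27.1 and 26.4 CPM in KO HFD and 29.8, 21.6, 27.3 and 24.3 CPM in WT HFD. On chow Mgst2 held 31.01, 39.7, 38.9 and 27.1 CPM in KO and 37.2, 30.8, 33.5 and 40.9 CPM in WT. The WT groups were apart, and in KO the lowest chow library, replicate 4, lay just under the highest HFD library. It fell in both genotypes, at -0.47 ± 0.10 over both (adjusted p = 0.00267), -0.47 ± 0.14 in WT (adjusted p = 0.0433) and -0.48 ± 0.14 in KO (adjusted p = 0.0388). Mgst3, its relative, had a log2 fold change of 0.29 ± 0.12 and Mgst1 of 0.02 ± 0.13 (adjusted p of 0.0686 and 0.903). Mgst3 passed without WT HFD replicate 3 (adjusted p = 0.0440) or KO chow replicate 4 (adjusted p = 0.0215). Of the other transferases, Gstz1, Gstk1 and Gstp1 had log2 fold changes of 0.23 ± 0.12, -0.15 ± 0.12 and 0.06 ± 0.09, none past the threshold. Gstk1 and Gstm4 passed without WT HFD replicate 4 (adjusted p of 0.0478 and 0.0401), and Gstm4 also without KO chow replicate 4 (adjusted p = 0.0496). Gstp2 averaged 1.02 CPM in KO HFD and 1.62 CPM in WT HFD, against 1.44 CPM in KO chow and 1.02 CPM in WT chow. Gstp3 held 2.41, 0.133, 0.430 and 0.139 CPM in KO HFD and 0.127, 1.28, 0.333 and 0 CPM in WT HFD. On chow Gstp3 held 3.02, 0.678, 4.29 and 0.438 CPM in KO and 0.652, 2.42, 0.466 and 8.11 CPM in WT, and its log2 fold change of -2.09 ± 0.85 did not pass (adjusted p = 0.0721) unless KO HFD replicate 1 or WT HFD replicate 2 was left out (adjusted p of 0.0202 and 0.0347).

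**Figure D4:**
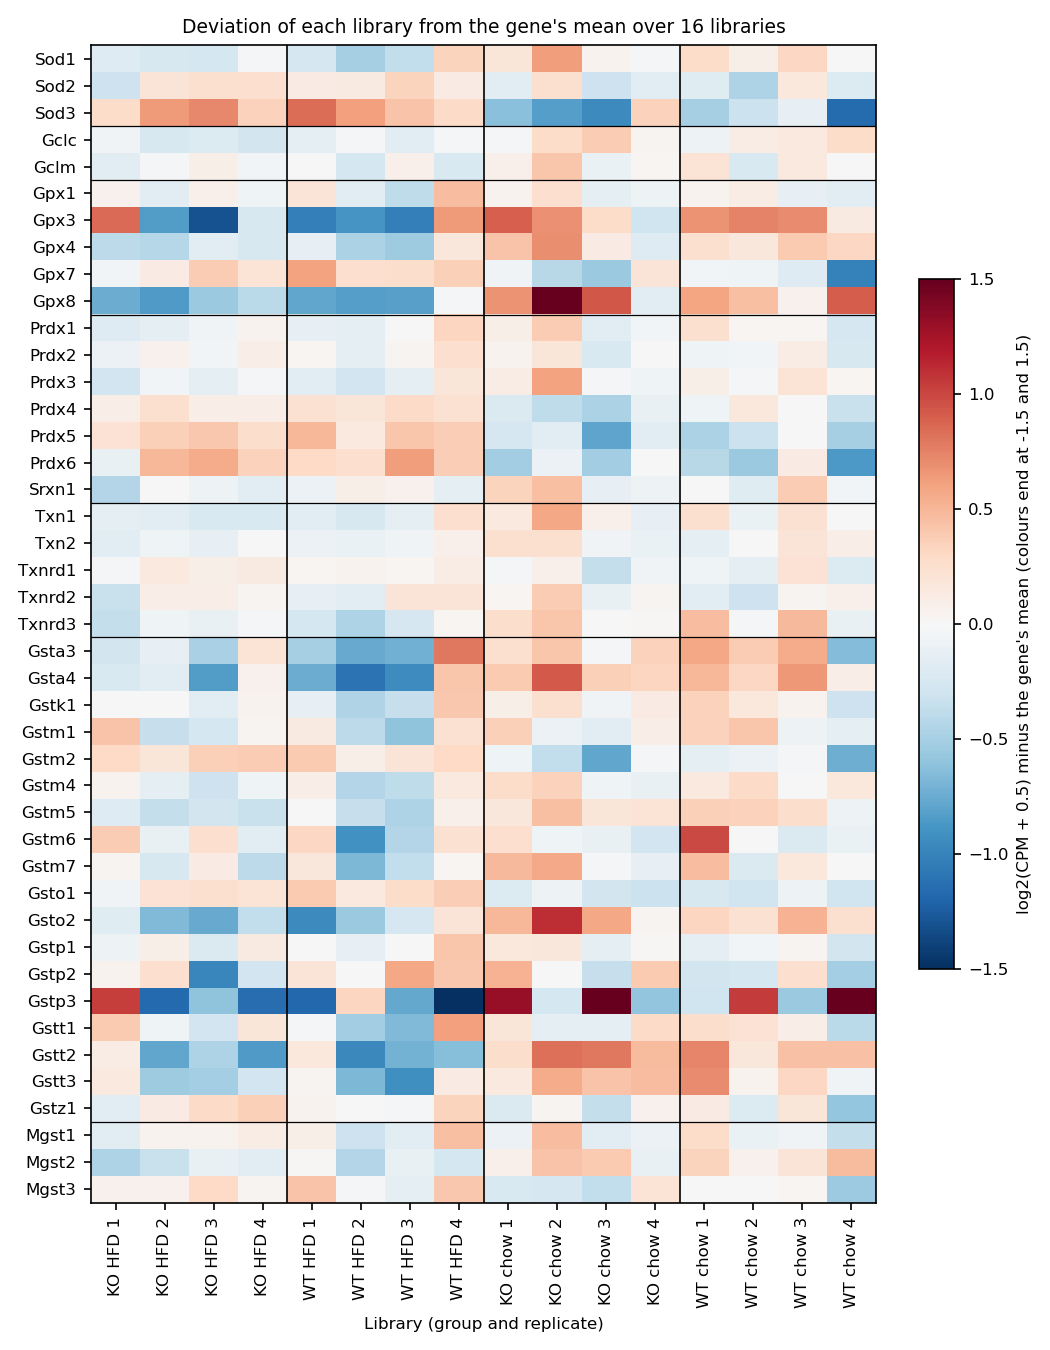
Deviation of log2(CPM + 0.5) from the gene's mean over 16 libraries for the 43 tested members (rows, by family) in each library (columns, KO HFD, WT HFD, KO chow and WT chow, 4 replicates each); red is above and blue below the mean, and colours end at -1.5 and 1.5. Sod3 and Prdx5 are red across the HFD columns, Gpx8 is mostly blue there, and WT HFD replicate 4 is red for Gpx3, Gsta3 and Gsta4 where its 3 companions are blue.

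WT HFD replicate 4 was the library whose omission raised the count of members called the most. With it left out, 24 members passed over both genotypes, the 19 above and Gpx3, Gsta3, Gstk1, Gstm4 and Prdx3, all lower on HFD. The share of all genes that passed without it is not given here, so the rise is not shown to be particular to the members. This library came from a single sequencing lane, as did WT HFD replicate 3 and WT chow replicate 2 (the same lane) and KO HFD replicate 1 (another lane). In WT HFD replicate 3, Gpx3, Gsta3 and Gsta4 stood at 117, 47.8 and 14.8 CPM. The mean log2 CPM of the lymphoid markers was -0.868 in WT HFD replicate 4 and 0.265 to 4.54 in its companions. That of the muscle markers was 2.12, against 5.23 to 6.90. The part of the lane and of cell makeup in the values of WT HFD replicate 4 was not tested.

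No tested member passed the threshold between KO and WT on either diet. On chow 0 members passed (0% against 0.00604% of all genes, which is Kmo alone), and 1 had an unadjusted p under 0.05 (2.33%, all genes 1%). On HFD 0 passed (all genes 0.00604%) and 0 had an unadjusted p under 0.05 (all genes 1.14%), and over both diets 0 passed (all genes 0.00604%) with 1 unadjusted (2.33%, all genes 0.997%). DESeq2 and limma-voom likewise called 0 in each. No member had KO and WT groups that did not overlap, on chow (all genes 0.556%), on HFD (all genes 1.42%) or over both diets (all genes 0.00604%). The median log2 fold change over the members was 0.06 on chow and -0.04 on HFD, against 0.00 over all genes on both, and the members' 95% intervals reached a median of 0.35 to each side on each diet and 0.25 over both diets. That reach belongs to an unadjusted p of 0.05, and a difference has to be larger to pass the adjusted threshold. The member with the lowest p was Prdx4, at 20.97 ± 2.41 CPM in KO chow against 24.8 ± 3.53 CPM in WT chow, a log2 fold change of -0.24 ± 0.11 (unadjusted p = 0.0399, adjusted p near 1, edgeR). On HFD Prdx4 differed by -0.10 ± 0.11, with 28.2 ± 1.42 CPM in KO HFD against 30.3 ± 0.915 CPM in WT HFD. On HFD the 95% intervals were -0.34 to 0.05 for Gsto1, -0.36 to 0.26 for Prdx5 and -0.48 to 0.30 for Gpx4 (KO over WT, log2). On chow they were -0.19 to 0.20 for Gsto1, -0.32 to 0.30 for Prdx5 and -0.37 to 0.41 for Gpx4. In the authors' deposited tables of KO against WT, 0 members had an adjusted p under 0.05, with a lowest adjusted p of 1 on chow and 0.9999 on HFD.

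**Figure D5:**
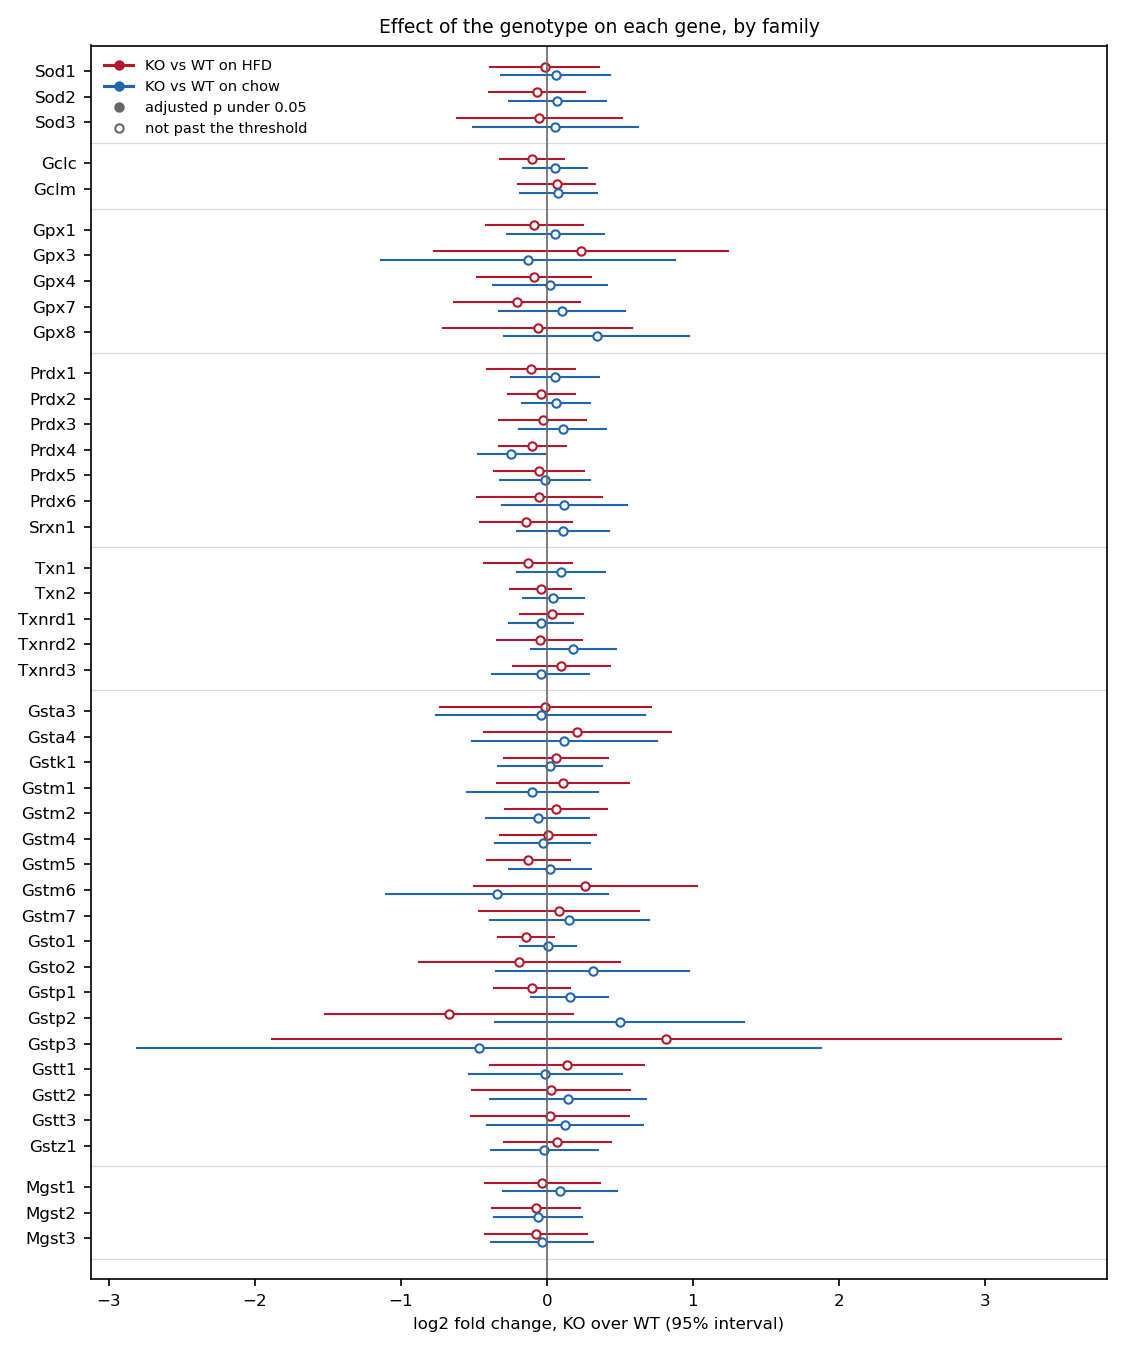
Log2 fold change of KO over WT with its 95% interval for the 43 tested members by family, on HFD (red, upper) and on chow (blue, lower); no point is filled because no member passed an adjusted p of 0.05. Intervals of all members but Prdx4 on chow include 0, and the widest belong to the low-count Gstp3 and to Gpx3.

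Whether the diet acted differently in the 2 genotypes was tested by the interaction, and 0 members passed (all genes 0%), with 0 at an unadjusted p under 0.05 (all genes 1.13%). DESeq2 and limma-voom called 0 as well. Of the 19 members that changed with the diet, the largest difference between genotypes was that of Gsto2, at -0.50 ± 0.45 (KO minus WT on the log2 scale, 95% interval -1.46 to 0.46), followed by Gpx8 at -0.41 ± 0.42 (95% interval -1.31 to 0.50) and Gpx7 at -0.31 ± 0.29 (95% interval -0.92 to 0.30). The members' 95% intervals reached a median of 0.50 to each side. Members called in 1 genotype alone are thus not shown to differ between genotypes.

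The genes around the members were read from lists of the same pathways, against 17.1% of all genes that rose and 16% that fell over both genotypes. Of 16 tested genes of glutathione synthesis, breakdown and transport beyond the members, 4 rose and 2 fell with the diet over both genotypes. Slc3a2, the heavy chain that the cystine carrier shares with other amino acid carriers, averaged 173 ± 32.2 CPM in KO HFD and 177 ± 17.6 CPM in WT HFD, against 90.05 ± 21.9 CPM in KO chow and 86.4 ± 13.5 CPM in WT chow (log2 fold change 0.99, adjusted p = 7.9e-05). Slc7a11, the carrier's own light chain, named here after its values were seen, did not pass (-2.53, adjusted p = 0.0707), at 0.785 ± 1.14 CPM in KO HFD and 0.718 ± 0.804 CPM in WT HFD, against 4.96 ± 7.22 CPM in KO chow and 3.78 ± 4.51 CPM in WT chow (SD, n = 4). Cth and Cbs, which make cysteine from homocysteine, also rose (1.24 and 0.86, adjusted p of 0.00246 and 0.00329), and Oplah, which recycles oxoproline, fell (-0.43, adjusted p = 0.000926). Of 14 tested genes of NADPH supply 3 rose and 3 fell (edgeR). G6pdx, the entry to the pentose phosphate pathway, Mthfd1 and Idh2 rose (0.52, 0.36 and 0.40, adjusted p of 0.000834, 0.00151 and 0.00422). The scarce Me3, at 1.12 CPM in KO HFD and 4.06 CPM in KO chow, fell (-1.52, adjusted p = 0.0096). Me1 and Nadk2, named here after their values were seen, also fell (-0.62 and -0.37, adjusted p of 0.0245 and 0.0218). The abundant Me1 averaged 893 ± 271 CPM in KO HFD and 960 ± 328 CPM in WT HFD, against 1351 ± 372 CPM in KO chow and 1500 ± 317 CPM in WT chow. Of 20 tested NRF2 regulators and targets beyond the members 6 rose and 2 fell. Osgin1 rose the most (log2 fold change 2.68, adjusted p = 0.000118), Ptgr1 and Hmox1, the heme oxygenase, rose (0.91 and 0.79, adjusted p of 0.00142 and 0.00323), and Nfe2l2, which encodes NRF2, fell (-0.37, adjusted p = 0.00122). Of 16 thioredoxin-related and repair genes 3 rose and 0 fell, with Sesn2 at 0.69, Glrx5 at 0.49 and Txndc17 at 0.27 (adjusted p of 0.00289, 0.00323 and 0.0386). The medians of these 4 lists were -0.05, 0.07, 0.02 and 0.09, against -0.04 over all genes. No gene of these lists passed between KO and WT on either diet or in the interaction.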

How the data were processed

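Poly-A RNA of inguinal white adipose tissue from 16 mice was sequenced in read pairs of 150 bases, per the labels. The deposited table holds whole-number read-pair counts per Ensembl 102 gene (GRCm38), made by the authors with featureCounts 2.0.3 without use of strand, per the file headers. Per the submitters' processing notes the aligner was STAR 2.7.3a and the build GRCm38.p6. The authors' deposited tables of KO against WT give log2 fold changes and adjusted p-values on each diet, for which the notes name DESeq2. They were used only where named.

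From the counts, 16549 of 55487 genes passed edgeR's filter on low counts. They were scaled with TMM factors and tested in 4 group means over 16 libraries with edgeR 4.0.16 (R 4.3.3, robust quasi-likelihood test), with Benjamini-Hochberg adjustment over all 16549 genes and a threshold of 0.05. CPM use TMM factors, RPKM also the exon length in the count table. Fold changes are given with SE or 95% intervals. Alternatives were DESeq2 1.42.0, limma-voom (limma 3.58.1), other scalings, filters and thresholds, a replicate block, lymphoid and muscle covariates, and each library left out. After seeing the data, a fit restricted to libraries merged over lanes and another restricted to libraries with low lymphoid markers were added. All 44 members are accounted for. Those past the threshold in any comparison and the highest per length of each family have values of every library, the others ranges or means. Of each other gene list up to 4 genes are named by adjusted p, and further ones are marked as named after their values were seen. The members and lists were chosen with earlier results of these data known. The scripts were tested on simulated data. Totals of 13824404 to 16909361 make 1 CPM about 14 or more read pairs in each library. Counting error weighs most on the lowest members, and its part in the spread between libraries was not computed.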

Additional observations from a re-analysis of the deposited data

Results flagged for a closer look

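Within groups of 4, 17 of 172 sets of values had a highest or lowest library whose gap to the next exceeded Dixon's 95% critical value. The share of sets past this value over all genes tested was not computed. The nominal 1 in 20 assumes normal and independent values, and several of the sets share a library, so the count is not read as an excess. WT HFD replicate 4 was the highest of its group for Gpx3 (370.9 CPM, next 128.9), Gsta3 (137.8, next 56.25), Gsta4 (38.55, next 17.03) and Gpx8 (31.87, next 18.69). KO HFD replicate 1 was the lowest for Gsto1 (65.0 CPM, next 78.1), Sod2 (181.8, next 258) and Txnrd2 (29.52, next 38.42) and the highest for Gstp3 (2.407, next 0.4299). KO HFD replicate 2 was the highest for Prdx4 (30.37 CPM, next 27.55) and KO HFD replicate 3 for Mgst3 (169 CPM, next 143.4). WT HFD replicate 3 was the highest for Sod2 (286.4 CPM, next 248.1). KO chow replicate 2 was the highest for Mgst1 (788.7 CPM, next 535.9), Gsta4 (55.07, next 38.06) and Gstm5 (30.52, next 25.77). WT chow replicate 4 was the lowest for Gpx3 (262.3 CPM, next 380) and Mgst3 (93.46, next 136.3), and WT chow replicate 1 the highest for Gstm6 (5.864, next 2.731). The part of lanes, depth and cell makeup in these values was not tested.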

How the results depend on the processing

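Over both genotypes the 19 members called with the diet were 20 with DESeq2, and 3 with an absolute log2 fold change of at least 1. Leaving out each library gave 17 to 24. In WT (8 called) the count was 13 with limma-voom, 3 without the low-count filter, 14 at an adjusted p under 0.10, 2 with an absolute log2 fold change of at least 1, 1 in the 12 libraries merged over lanes and 3 in the 10 with low lymphoid markers, and 2 to 13 with each library left out. In KO (12 called) it was 3 with an absolute log2 fold change of at least 1, 2 in the 10 libraries with low lymphoid markers and 2 to 14 with each library left out. Fewer libraries or a stricter threshold account by construction for part of these drops, and the cause of the rest was not tested. The shares of all genes under these settings are not given here, so the counts do not set members apart from other genes. Genotype and interaction gave 0 members in every alternative. Of 1151 alternatives to 39 called member results, 947 kept the call, 204 lost it and 0 reversed. With replicate numbers as a block, 4 members passed in WT and 5 in KO. The numbers do not pair the animals: same-numbered libraries correlated between -0.693 and 0.553, and at most 2 of 4 correlated best with their own number. Another scaling put the median of all genes -0.0618 to -0.00438 away (log2) and turned the sign of members near 0 only. Depth limits Gstt4, Gstp2, Gstp3, Gstm6 and Gsto2.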

Other observations

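Genes near the antioxidant enzymes in other pathways also changed with the diet over both genotypes, where 17.1% of all genes tested rose and 16% fell. Of 10 tested genes of other peroxide, superoxide and metal handling, 1 rose and 3 fell. The metallothioneins Mt1 and Mt2, which bind zinc and copper, fell by 1.14 and 1.36 (log2, adjusted p of 0.000651 and 0.0134, edgeR), with Mt1 at 35.7 ± 4.74 CPM in KO HFD and 44.4 ± 11.7 CPM in WT HFD, against 89.9 ± 28.6 CPM in KO chow and 86.02 ± 33.1 CPM in WT chow (SD, n = 4). Mt2 was scarce, at 0.89 and 1.38 CPM in KO HFD and WT HFD, against 3.94 and 2.09 CPM in KO chow and WT chow. It passed in KO (-2.12, adjusted p = 0.0223, edgeR) and not in WT (-0.60, adjusted p = 0.478, edgeR). The paraoxonases split, with Pon1 at -1.77 (adjusted p = 0.00285) and Pon2 at 0.54 (adjusted p = 0.00132). Of 11 tested NADPH oxidase subunits and other oxidant sources, 1 rose and 1 fell, and these were the monoamine oxidases of the mitochondrial outer membrane, which release hydrogen peroxide. Maoa averaged 59.2 ± 7.84 CPM in KO HFD and 66.6 ± 8.15 CPM in WT HFD, against 32.9 ± 8.32 CPM in KO chow and 32.5 ± 10.1 CPM in WT chow (0.94, adjusted p = 0.000633), and Maob fell by 0.35 (adjusted p = 0.0325). Of 7 genes of selenoprotein synthesis, on which the selenium-containing peroxidases and thioredoxin reductases depend, Sepsecs rose (0.29, adjusted p = 0.0136) and Sephs2 and Scly fell (-0.45 and -0.38, adjusted p of 0.00902 and 0.0359). The medians of these lists were 0.06, -0.03 and -0.04, against -0.04 over all genes tested.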
